A study of Mus musculus with 10 samples.

Results

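The genes of the MHC class II presentation pathway were followed across innate lymphoid cells (ILCs) of mouse skin. They were chosen by name as 8 of the 47643 gene rows: Cd74, H2-Aa, H2-Ab1, H2-Eb1, H2-DMa, H2-DMb1, H2-Oa and Ciita. The myeloid genes Lyz2 and Csf1r were set beside them, because macrophages and dendritic cells carry large amounts of class II transcripts. All 8 genes had enough counts to be tested.

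MHC class II molecules are pairs of an alpha and a beta chain that show peptides from outside the cell to CD4 T cells. In the mouse, H2-Aa and H2-Ab1 encode the chains of the I-A molecule and H2-Eb1 the beta chain of I-E, whose alpha chain gene is defective in the B6 strain. Cd74 encodes the invariant chain, which holds the groove shut until cathepsins cut it, and H2-DMa and H2-DMb1 encode the H2-M pair that then exchanges its last fragment for a peptide. H2-Oa encodes a chain of H2-O, an inhibitor of H2-M, and Ciita encodes the coactivator that switches the pathway on. Class II is best known from dendritic cells, macrophages and B cells, and it is also carried by some ILCs, where it lets them meet T cells.

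RNA sequencing covered 10 libraries of sorted skin ILCs from adult B6 mice. They comprised 3 epidermal libraries (from the outer epithelium), 2 dermal libraries of CCR6+ cells (CCR6 being a receptor for a chemokine), 2 dermal libraries of Sca1+ cells (Sca1 being a surface antigen) and 3 subcutaneous libraries. No group carried a genetic change or a treatment in its label. Library totals lay between 11627222 and 18118544 counts, and 3 counts of a library came to between 0.166 and 0.258 CPM. The labels do not say that replicates came from separate animals, so every p-value here reflects how far these libraries spread, and that spread may be technical. The summed level of 8 ILC genes, among them Ptprc, Il7r, Thy1 and Gata3, was 4244 to 4805 CPM in epidermal and 6971 to 7154 CPM in dermal CCR6+ libraries. It was 8581 to 8717 CPM in dermal Sca1+ and 7818 to 9252 CPM in subcutaneous libraries. The genes of this list did not all change in the same direction, as given below with the other marker lists.

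Class II promoters are recognised by a shared set of boxes, among them the Y box, where NF-Y binds, and the X box, where RFX and, next to it, CREB bind. Of the 8 genes, H2-Ab1 and Ciita had no RefSeq promoter window at hand. Cd74 was left out by choice, and its motifs are not reported. The windows of the other 5 genes (GRCm38.p6, from 250 bases before to 50 bases after the start of transcription) were used. They were searched on both strands for the Y box core TGATTGG, for AACNNATGA as an X box core and for the CREB element TGACGTCA, all chosen after the windows had been read. The windows of H2-Aa (chr17:34287774-34288073, minus strand), H2-Eb1 (chr17:34305617-34305916, plus strand), H2-DMb1 (chr17:34152941-34153240, plus strand) and H2-Oa (chr17:34092129-34092428, plus strand) are shown because all 4 hold the Y box core while their transcripts differed widely in how much they changed. They run 5′ to 3′ along the gene's own strand, with every match in capitals.
H2-Aa: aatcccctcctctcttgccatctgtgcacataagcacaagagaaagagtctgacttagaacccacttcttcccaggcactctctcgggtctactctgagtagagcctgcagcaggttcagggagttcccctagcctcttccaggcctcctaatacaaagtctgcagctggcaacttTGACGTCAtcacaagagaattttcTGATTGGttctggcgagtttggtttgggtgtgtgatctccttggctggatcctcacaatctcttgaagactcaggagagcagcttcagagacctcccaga
H2-Eb1: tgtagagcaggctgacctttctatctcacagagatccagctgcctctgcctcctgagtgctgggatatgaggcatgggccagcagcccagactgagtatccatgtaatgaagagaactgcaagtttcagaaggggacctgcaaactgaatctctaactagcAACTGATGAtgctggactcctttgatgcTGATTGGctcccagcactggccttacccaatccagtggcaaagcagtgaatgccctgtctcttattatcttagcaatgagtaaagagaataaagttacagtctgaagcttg
H2-DMb1: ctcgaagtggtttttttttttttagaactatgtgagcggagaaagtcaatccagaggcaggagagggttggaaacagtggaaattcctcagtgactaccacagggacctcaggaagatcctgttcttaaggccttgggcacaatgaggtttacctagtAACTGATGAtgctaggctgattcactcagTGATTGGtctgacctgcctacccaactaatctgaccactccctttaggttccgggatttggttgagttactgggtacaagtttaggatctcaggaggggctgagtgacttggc
H2-Oa: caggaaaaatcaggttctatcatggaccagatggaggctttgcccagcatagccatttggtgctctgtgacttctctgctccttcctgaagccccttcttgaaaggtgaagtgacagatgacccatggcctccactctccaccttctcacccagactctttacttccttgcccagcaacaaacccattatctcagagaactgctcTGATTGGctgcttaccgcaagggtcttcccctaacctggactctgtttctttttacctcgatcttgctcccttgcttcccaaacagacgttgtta
The Y box core began 50 bases before the start in H2-Aa, 61 in H2-Eb1, 63 in H2-DMb1 and 45 in H2-Oa. The X box core was found in H2-Eb1 and H2-DMb1, where 19 and 20 bases separated it from the Y box core. Among the windows of the 5 genes used, the CREB element was found only in H2-Aa. No match overlapped another. Over all 32851 RefSeq windows, 7.82% held the Y box core, 2.85% the X box core, 1.79% the CREB element and 0.307% both box cores. The 2 windows of H2-DMa held none of the 3 motifs. Outside the 8 genes, the windows of H2-DMb2 and H2-Ob, which encode further chains of H2-M and H2-O, held both box cores. A match describes letters and does not show a bound site.

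The epidermal libraries held the least class II RNA and the subcutaneous libraries the most. In CPM (counts made comparable across libraries with edgeR's TMM factors), the 8 genes summed to 612, 591 and 713 in the epidermal libraries, to 1568 and 1917 in dermal CCR6+, to 1528 and 3267 in dermal Sca1+, and to 4675, 5878 and 3455 in subcutaneous libraries. The epidermal libraries lay below all others and the subcutaneous ones above all others, while the 2 dermal groups overlapped. Of the 8 genes, 7 were called lower in epidermal than in subcutaneous ILCs, at a Benjamini-Hochberg adjusted p under 0.05 in edgeR's quasi-likelihood test. Among all 16208 genes tested in that comparison, 20.2% were called in either direction and 13.3% were called lower. The median log2 fold change (epidermal over subcutaneous) was -2.61 over the 8 genes and -0.02 over all genes tested. In sorted bulk samples, fewer cells of a type and less RNA per cell cannot be told apart.

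**Figure D1:**
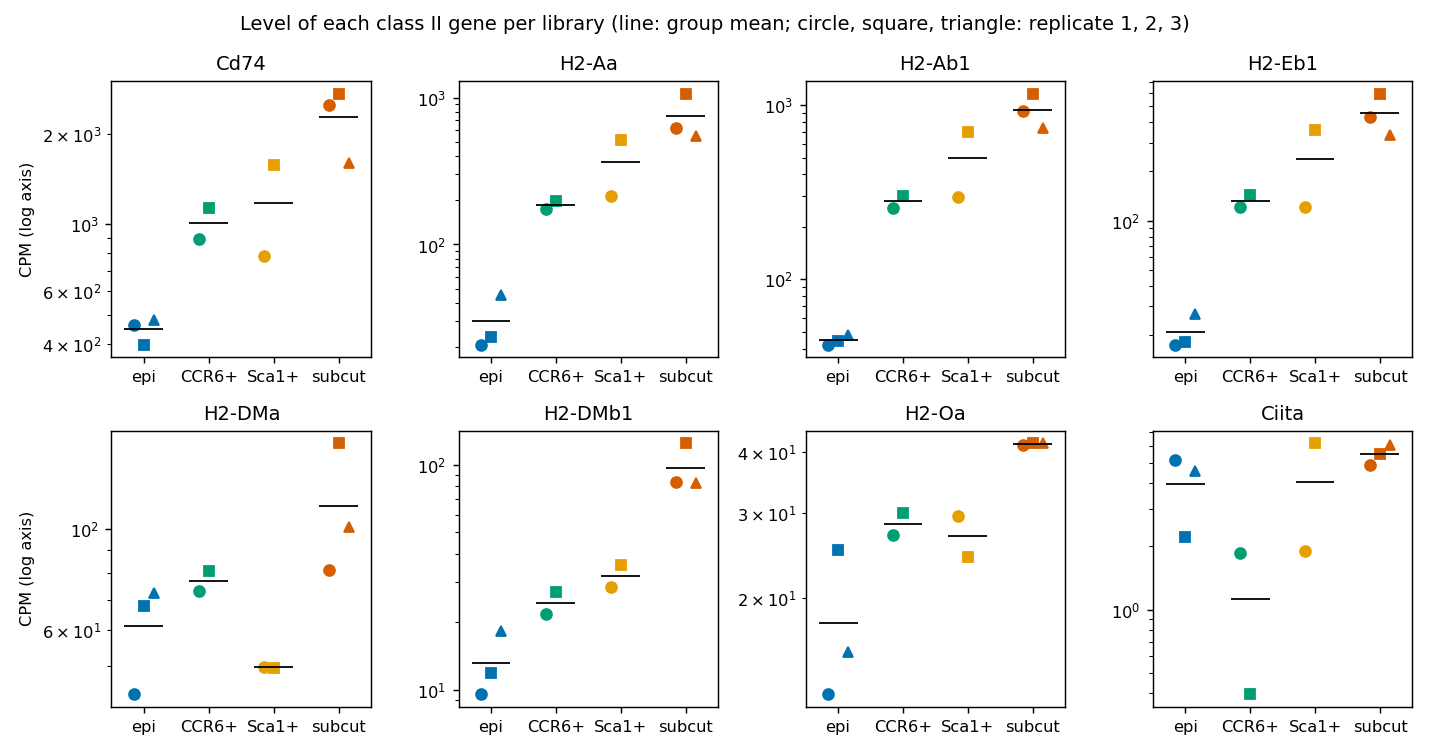
Level of each of the 8 class II genes in every library, in CPM on log axes that differ between panels. Points are libraries, with 3 epidermal, 2 dermal CCR6+, 2 dermal Sca1+ and 3 subcutaneous, and the black line is the group mean. H2-Aa runs from 20.8 CPM in an epidermal to 1066 CPM in a subcutaneous library, the group mean of H2-DMa is lowest in dermal Sca1+, and that of Ciita is lowest in dermal CCR6+.

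In the 3 comparisons of epidermal ILCs with another group, the chain genes of the class II molecule itself had the largest log2 fold changes of the 8 genes in size. H2-Aa (chromosome 17, 34282744 to 34287823, mm10) was at 20.8, 23.4 and 45.5 CPM in epidermal ILCs, at 174 and 197 CPM in dermal CCR6+ ILCs, at 215 and 518 CPM in dermal Sca1+ ILCs and at 622, 1066 and 550 CPM in subcutaneous ILCs. No 2 groups overlapped in H2-Aa, and in dermal Sca1+ replicate 2 was far above replicate 1. The log2 fold change of H2-Aa was -4.64 ± 0.459 (SE; edgeR adjusted p = 7.6e-05) in epidermal over subcutaneous, -3.61 ± 0.457 (0.000624) in epidermal over dermal Sca1+ and -2.63 ± 0.445 (0.00546) in epidermal over dermal CCR6+ ILCs.

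H2-Ab1 (chromosome 17, 34257689 to 34269419), the partner chain of H2-Aa, was at 42.1, 44.3 and 48.0 CPM in epidermal, at 258 and 303 CPM in dermal CCR6+, at 296 and 701 CPM in dermal Sca1+ and at 924, 1166 and 741 CPM in subcutaneous ILCs. Its epidermal libraries were close together and below the 7 others, and the dermal groups overlapped each other. The log2 fold change of H2-Ab1 was -4.40 ± 0.333 (SE; edgeR adjusted p = 1.5e-05) in epidermal over subcutaneous, -3.48 ± 0.334 (0.00012) in epidermal over dermal Sca1+ and -2.64 ± 0.326 (0.000883) in epidermal over dermal CCR6+ ILCs. H2-Eb1 (chromosome 17, 34305867 to 34316674) was at 17.5, 18.2 and 26.9 CPM in epidermal, at 121 and 143 CPM in dermal CCR6+, at 121 and 359 CPM in dermal Sca1+ and at 430, 599 and 332 CPM in subcutaneous ILCs. Dermal Sca1+ replicate 2 reached the subcutaneous range of H2-Eb1, and replicate 1 sat with the CCR6+ libraries. The log2 fold change of H2-Eb1 was -4.44 ± 0.427 (SE; edgeR adjusted p = 6.5e-05) in epidermal over subcutaneous, -3.52 ± 0.429 (0.000492) in epidermal over dermal Sca1+ and -2.67 ± 0.419 (0.00367) in epidermal over dermal CCR6+ ILCs. A gene on the opposite strand, Gm20513, overlaps H2-Eb1, and without strand the reads of both cannot be told apart. These 9 epidermal differences of H2-Aa, H2-Ab1 and H2-Eb1 were called in all 18 alternatives tried for each, which include leaving out every library in turn. Without dermal Sca1+ replicate 2, the log2 fold change in epidermal over dermal Sca1+ ILCs was smaller in size, at -2.81 for H2-Aa (edgeR adjusted p = 0.00437), -2.70 for H2-Ab1 (0.000333) and -2.50 for H2-Eb1 (0.00203).

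Cd74, the invariant chain (chromosome 18, 60803848 to 60812652, mm10), was the most abundant of the 8 genes per length in every library. Its level was 461, 398 and 482 CPM in epidermal, 891 and 1136 CPM in dermal CCR6+, 786 and 1573 CPM in dermal Sca1+ and 2488, 2721 and 1600 CPM in subcutaneous ILCs. Epidermal libraries were below all others, and the higher dermal Sca1+ library nearly reached the lowest subcutaneous one. The log2 fold change of Cd74 was -2.34 ± 0.290 (SE; edgeR adjusted p = 0.000296) in epidermal over subcutaneous ILCs, a fall to a level 5.08 times lower. Against dermal Sca1+ it was -1.40 ± 0.305 (edgeR adjusted p = 0.0143) and against dermal CCR6+ -1.18 ± 0.305 (0.048). Limma did not call Cd74 against dermal CCR6+, at adjusted p of 0.0920 with pseudocount 1 and 0.102 with pseudocount 0.1. The call against dermal CCR6+ was lost without any 1 of the 3 epidermal libraries, either CCR6+ library or subcutaneous replicate 1 or 2, at adjusted p of 0.0638 (without subcutaneous replicate 2) to 0.24 (without dermal CCR6+ replicate 2). The call against dermal Sca1+ was lost without epidermal replicate 2 (log2 fold change -1.32, adjusted p = 0.0513) or dermal Sca1+ replicate 2 (-0.79, 0.179).

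The make-up of the class II transcripts also differed between epidermal ILCs and the rest. By TPM, deposited values corrected for gene length, Cd74 made up 75.5%, 68.2% and 67.6% of the summed level of the 8 genes in the epidermal libraries, 55.4% and 57.7% in dermal CCR6+, 49.6% and 46.4% in dermal Sca1+, and 51.6%, 44.5% and 44.6% in subcutaneous libraries. H2-Aa, H2-Ab1 and H2-Eb1 together made up 14.2%, 15.9% and 18.4% in epidermal, 37.5% and 35.5% in dermal CCR6+, 43.8% and 50.5% in dermal Sca1+, and 44.4%, 50.6% and 49.3% in subcutaneous libraries. Epidermal libraries stood apart in both shares. Per TPM of Cd74, H2-Aa was at 0.0525 to 0.108 TPM in the 3 epidermal libraries and at 0.199 to 0.45 TPM in the 7 others, a log2 difference of -2.09. The same ratio was 0.0956 to 0.115 against 0.282 to 0.488 for H2-Ab1 (log2 difference -1.90) and 0.0405 to 0.0599 against 0.136 to 0.245 for H2-Eb1 (-1.93). H2-DMa ran the other way, at 0.0777 to 0.132 TPM per TPM of Cd74 in epidermal libraries and 0.0248 to 0.0709 in the others (1.27). So did Ciita, at 0.00108 to 0.00215 in epidermal libraries and 6.53e-05 to 0.000753 in the others. The Ciita ratio rests on low counts and was not tested. These ratios were chosen after the values had been seen. H2-Aa, H2-Ab1, H2-Eb1 and H2-DMa each gave p = 0.0167 in a two-sided exact permutation test over libraries (3 against 7), and 0.025 adjusted over the 6 ratios tested. That p is the smallest that the groups allow. It was fixed once these ratios were seen not to overlap, so it describes the separation and adds no support. The 7 other libraries also pool different sorts. The ratios to Cd74 of H2-DMb1 (log2 difference -0.13, adjusted exact permutation p = 0.7) and H2-Oa (0.74, adjusted exact permutation p = 0.14) missed the threshold. Without dermal Sca1+ replicate 1, H2-Oa reached 0.86 at an exact permutation p of 0.0476, not adjusted. With 1 epidermal library left out, the smallest p that this test allows is 0.0556, so the tests of H2-Aa, H2-Ab1, H2-Eb1 and H2-DMa then miss the threshold.

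**Figure D2:**
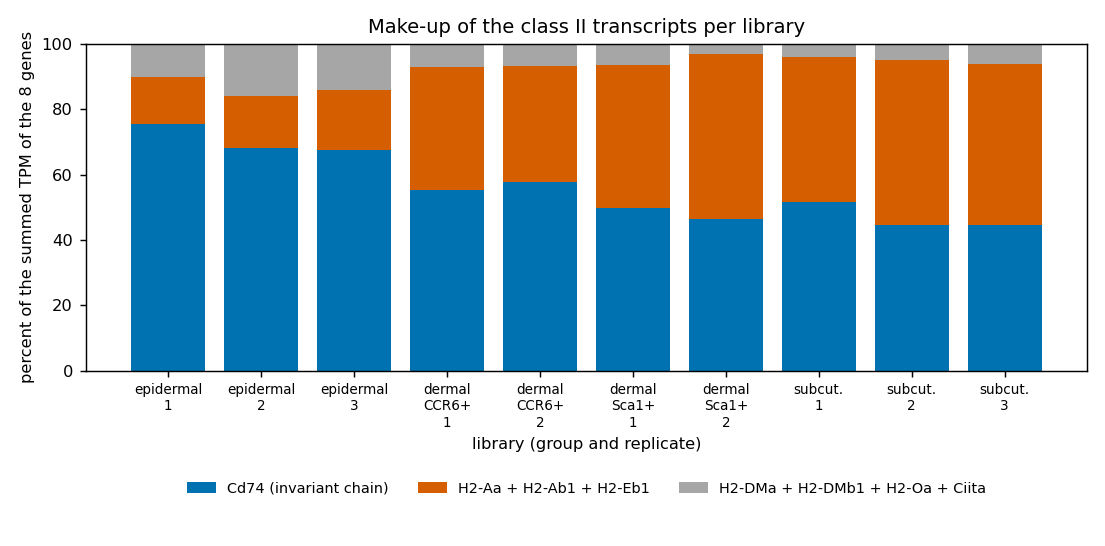
Share of the summed TPM of the 8 class II genes taken by Cd74, by H2-Aa, H2-Ab1 and H2-Eb1 together, and by the other 4, in percent, 1 bar per library. Cd74 takes 67.6% to 75.5% in the epidermal bars and 44.5% to 57.7% in the other 7.

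Of the H2-M genes, whose product loads peptide, H2-DMb1 was called in 4 comparisons and H2-DMa in 1. H2-DMb1 (chromosome 17, 34153072 to 34160230, mm10) was at 9.54, 11.8 and 18.2 CPM in epidermal, at 21.6 and 27.1 CPM in dermal CCR6+, at 28.5 and 35.8 CPM in dermal Sca1+ and at 83.5, 124 and 83.2 CPM in subcutaneous ILCs. Its 4 groups did not overlap, with the levels in the order given. The log2 fold change of H2-DMb1 was -2.88 ± 0.313 (SE; edgeR adjusted p = 0.000135) in epidermal over subcutaneous and -1.28 ± 0.324 (0.0287) in epidermal over dermal Sca1+ ILCs, and it missed the threshold in epidermal over dermal CCR6+ (-0.88 ± 0.325, 0.157). The call against dermal Sca1+ was lost without epidermal replicate 1 (adjusted p = 0.0687) or 2 (0.0849) and without dermal Sca1+ replicate 1 (0.0677) or 2 (0.17). H2-DMb1 has a near-identical neighbour, H2-DMb2 (chromosome 17, 34143307 to 34151555), and the counting may have split their reads with error. H2-DMb2 was at 3.11 ± 0.696 CPM in epidermal (SD, n = 3), 8.26 ± 1.03 CPM in dermal CCR6+ (n = 2), 4.26 ± 2.97 CPM in dermal Sca1+ (n = 2) and 26.8 ± 10.6 CPM in subcutaneous ILCs (n = 3).

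H2-DMa (chromosome 17, 34119541 to 34139101), the partner chain of H2-DMb1, was at 43.4, 67.8 and 72.5 CPM in epidermal, at 73.2 and 80.9 CPM in dermal CCR6+, at 49.8 and 49.6 CPM in dermal Sca1+ and at 81.5, 154 and 101 CPM in subcutaneous ILCs. The epidermal range took in both dermal Sca1+ libraries. Its log2 fold change was -0.88 ± 0.275 (SE; edgeR adjusted p = 0.0479) in epidermal over subcutaneous ILCs. That call was lost when any 1 library other than subcutaneous replicate 1 was left out, with adjusted p of 0.0656 (without dermal CCR6+ replicate 1) to 0.181 (without subcutaneous replicate 2). Brd2 and Gm20493 overlap H2-DMa on the opposite strand, and their reads cannot be told apart from its own in the shared part.

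H2-Oa (chromosome 17, 34092340 to 34095234), a chain of the H2-M inhibitor H2-O, was at 12.7, 25.1 and 15.5 CPM in epidermal, at 27.0 and 30.0 CPM in dermal CCR6+, at 29.6 and 24.3 CPM in dermal Sca1+ and at 41.4, 41.7 and 41.7 CPM in subcutaneous ILCs. The 3 subcutaneous libraries nearly coincided and lay above the others. The log2 fold change of H2-Oa was -1.23 ± 0.298 (SE; edgeR adjusted p = 0.0153) in epidermal over subcutaneous ILCs, a call lost without epidermal replicate 3 (0.0651). Its partner chain gene H2-Ob had another order, at 1.18 ± 0.799 CPM in epidermal (SD, n = 3), 6.28 ± 6.25 CPM in dermal CCR6+ (n = 2), 11.4 ± 0.944 CPM in dermal Sca1+ (n = 2) and 3.94 ± 2.95 CPM in subcutaneous ILCs (n = 3), and it was called in none of the 6 comparisons. BC051537 overlaps H2-Oa on the opposite strand.

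Ciita, the coactivator of the pathway (chromosome 16, 10480059 to 10528418, mm10), was called in none of the 6 comparisons. It was at 5.15, 2.23 and 4.56 CPM in epidermal, at 1.86 and 0.396 CPM in dermal CCR6+, at 1.91 and 6.19 CPM in dermal Sca1+ and at 4.89, 5.49 and 6.11 CPM in subcutaneous ILCs. Behind these values stood 32 to 95 counts in the epidermal, 6 to 29 in the dermal CCR6+, 30 to 72 in the dermal Sca1+ and 73 to 79 in the subcutaneous libraries. Epidermal and subcutaneous libraries overlapped in Ciita, and the log2 fold change was -0.46 ± 0.786 (SE; edgeR adjusted p = 0.752). The lowest level was in dermal CCR6+ ILCs, below all epidermal and all subcutaneous libraries, but neither the epidermal over dermal CCR6+ difference (1.81 ± 0.945, edgeR adjusted p = 0.326) nor the dermal CCR6+ over subcutaneous one (-2.27 ± 0.966, 0.193) passed the threshold. Dexi overlaps Ciita on the opposite strand.

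Against dermal CCR6+ ILCs, 4 of the 8 genes were called lower in epidermal ILCs (H2-Aa, H2-Ab1, H2-Eb1 and Cd74), where 6.18% of all genes tested were called in either direction and 5.19% were called lower. The median log2 fold change was -1.03 over the 8 genes and 0 over all genes tested. Against dermal Sca1+ ILCs, 5 were called lower in epidermal ILCs (the same 4 and H2-DMb1), where 11.4% of all genes were called in either direction and 8.66% were called lower. There the medians were -1.34 and 0.

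Between dermal CCR6+ and subcutaneous ILCs, 4 of the 8 genes were called lower in dermal CCR6+, with 7.46% of all genes called in either direction and 3.71% called lower. They were H2-Aa (log2 fold change -2.01 ± 0.475 SE, edgeR adjusted p = 0.0293), H2-Ab1 (-1.75 ± 0.344, 0.0127), H2-Eb1 (-1.78 ± 0.441, 0.0365) and H2-DMb1 (-1.99 ± 0.351, 0.00752). Cd74 was at -1.16 ± 0.321 and missed the threshold (edgeR adjusted p = 0.056), which it passed without either Sca1+ library (0.0303 without replicate 1, 0.0291 without replicate 2) or subcutaneous replicate 3 (0.0406). Cd74 also passed by DESeq2 (adjusted p = 0.00208), by limma with pseudocount 1 (0.0499) and, in edgeR, with no filter (0.000489). The filter of 5 CPM in 2 libraries (0.0404) and a fit of only those groups (0.0491) called it as well. In 10 of the 18 alternatives Cd74 stayed uncalled. The median was -1.76 over the 8 genes and -0.08 over all genes tested. Without either CCR6+ library, 0 of the 8 genes were called, at edgeR adjusted p of 0.0576 for H2-DMb1 and 0.0808 for H2-Ab1 without replicate 1, and 0.0559 and 0.0838 without replicate 2. Without subcutaneous replicate 1, H2-Aa (0.0524) and H2-Eb1 (0.0752) lost the call, and likewise without subcutaneous replicate 2 (0.0793 and 0.0987).

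Between dermal Sca1+ and subcutaneous ILCs, only H2-DMb1 was called, lower in dermal Sca1+ than in subcutaneous ILCs (log2 fold change -1.59 ± 0.345 SE, edgeR adjusted p = 0.0429), where 2.2% of all genes were called in either direction and 0.993% were called lower. The other 7 had log2 fold changes of -1.18 (H2-DMa) to -0.44 (Ciita), and the medians were -0.93 over the 8 genes and -0.03 over all genes tested. The H2-DMb1 call was lost without epidermal replicate 2, either CCR6+ library, either Sca1+ library or any 1 subcutaneous library, at adjusted p of 0.0535 (without epidermal replicate 2) to 0.261 (without dermal Sca1+ replicate 1). H2-Ab1, which was not called (0.215), was called without dermal Sca1+ replicate 2 (-1.69, 0.04).

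Between the dermal populations, edgeR called 0 of the 8 genes in dermal CCR6+ over dermal Sca1+ ILCs, where 0.642% of all genes tested were called in either direction. H2-Ab1 alone had an unadjusted p under 0.05 (log2 fold change -0.83 ± 0.356, edgeR adjusted p = 0.437), and DESeq2 and limma called 0 as well. The medians were -0.62 over the 8 genes and -0.01 over all genes. Without dermal Sca1+ replicate 2, the log2 fold change of Cd74 turned to 0.40 and that of H2-Eb1 to 0.16.

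**Figure D3:**
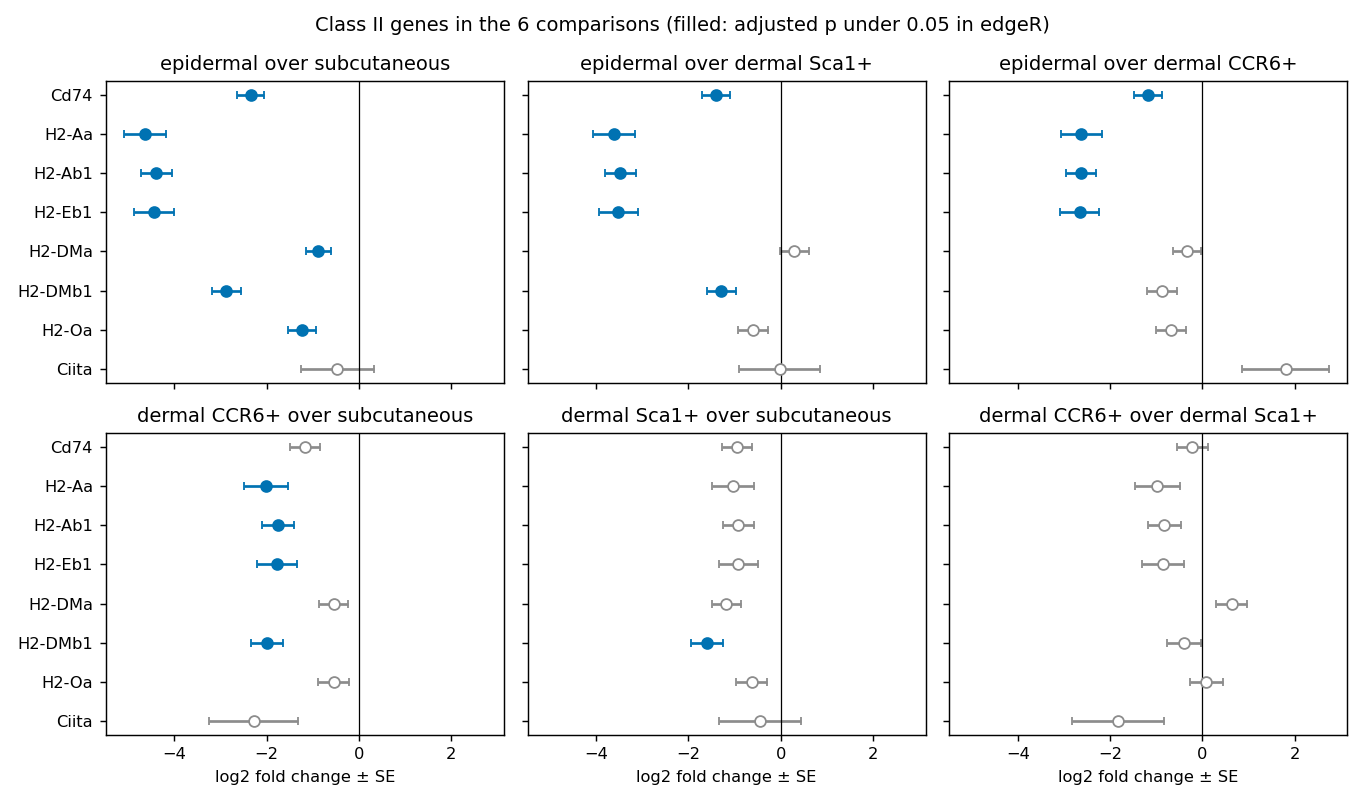
Log2 fold change of each class II gene in the 6 comparisons, with the first-named group over the second. Bars are SE, and filled points have an adjusted p under 0.05 in edgeR. The 3 upper panels, which set epidermal ILCs against the other groups, hold H2-Aa, H2-Ab1 and H2-Eb1 farthest to the left, from -4.64 to -2.63.

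Lyz2 and Csf1r were near 0 in epidermal ILCs. Lyz2, lysozyme of macrophages and other myeloid cells (chromosome 10, 117277331 to 117282321, mm10), had 1, 0 and 4 counts in the epidermal libraries, against 161 and 149 CPM in dermal CCR6+, 248 and 396 CPM in dermal Sca1+ and 2750, 4509 and 2320 CPM in subcutaneous libraries. Csf1r, the receptor through which macrophages receive their growth factor, had 0, 0 and 30 counts in the epidermal libraries and was at 19.7 and 5.74 CPM in dermal CCR6+, 14.8 and 41.4 CPM in dermal Sca1+ and 276, 450 and 240 CPM in subcutaneous libraries. Both were called lower in epidermal ILCs than in each other group, with edgeR adjusted p of 5.2e-07 for Lyz2 and 0.000269 for Csf1r against subcutaneous ILCs. The Csf1r call against dermal CCR6+ (0.0259) was lost without epidermal replicate 2 (0.0692) or dermal CCR6+ replicate 1 (0.161). It was also lost by DESeq2 (0.055), by limma with pseudocount 1 (0.0733), with the replicate block (0.0759) and in a fit of only those groups (0.204), and such a fit also ended the Csf1r call against dermal Sca1+ (0.0596). All 30 epidermal counts of Csf1r were in replicate 3, without which the group is at 0 and no fold change is given. Lyz2 was also lower in dermal CCR6+ than in subcutaneous ILCs (log2 fold change -4.37 ± 0.435 SE, edgeR adjusted p = 0.000353) and in dermal Sca1+ than in subcutaneous ILCs (-3.31 ± 0.411, 0.00254). The epidermal libraries thus held 398 to 482 CPM of Cd74 and 42.1 to 48.0 CPM of H2-Ab1 with Lyz2 at or near 0.

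The ratio of class II genes to Lyz2 was not the same in the other layers. Per CPM of Lyz2, Cd74 was at 5.54 and 7.64 CPM in dermal CCR6+, at 3.16 and 3.97 CPM in dermal Sca1+ and at 0.604 to 0.905 CPM in subcutaneous libraries. The same ratio of H2-Aa was 1.08 and 1.33 in dermal CCR6+, 0.865 and 1.31 in dermal Sca1+ and 0.226 to 0.237 in subcutaneous libraries. The dermal groups overlapped in the H2-Aa ratio and both exceeded the subcutaneous libraries. Per CPM of Csf1r, H2-Aa was at 8.83 and 34.3 CPM in dermal CCR6+, at 12.5 and 14.5 CPM in dermal Sca1+ and at 2.25 to 2.37 CPM in subcutaneous libraries. For the epidermal libraries no ratio to Lyz2 is given, since Lyz2 had 4 counts or fewer in each. Csf1r had counts in epidermal replicate 3 alone. There H2-Aa (30.6 CPM per CPM of Csf1r), H2-Ab1 (32.3) and H2-Eb1 (18.1) were each within the dermal CCR6+ range of the same ratio. Cd74 was above its range, at 324 against 45.2 and 198 in dermal CCR6+. So were H2-DMa (48.8 against 3.72 and 14.1), H2-DMb1 (12.2 against 1.10 and 4.71), H2-Oa (10.4) and Ciita (3.07).

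**Figure D4:**
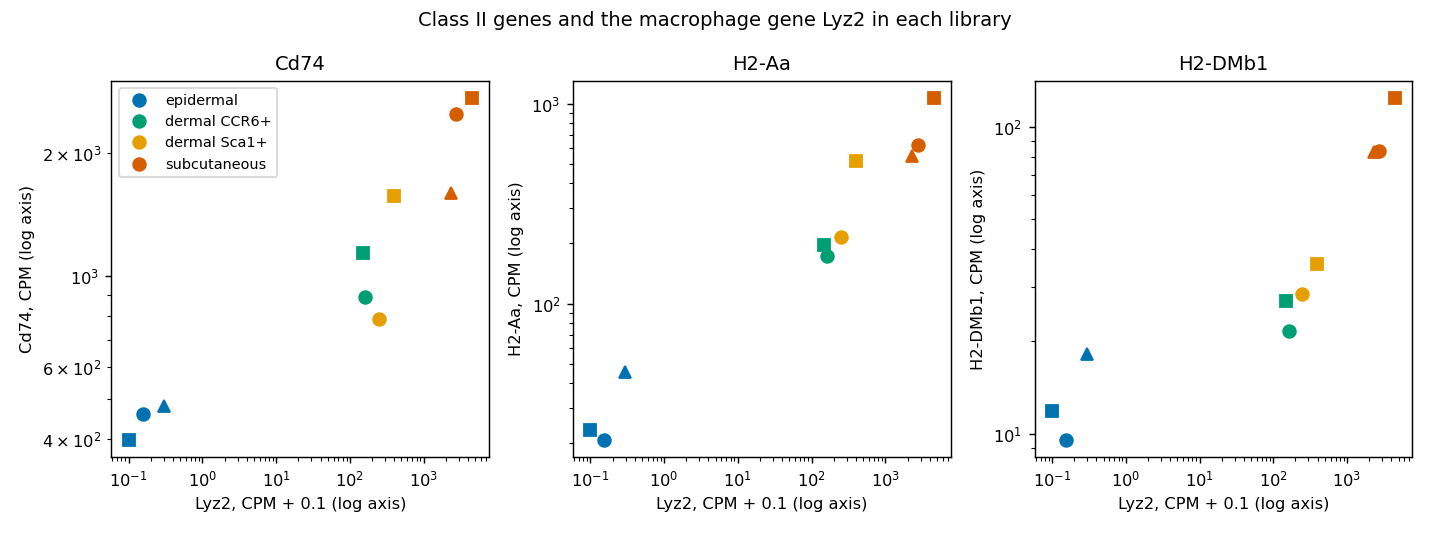
Levels of Cd74, H2-Aa and H2-DMb1 (CPM, log axes) against Lyz2 (CPM + 0.1, log axis), 1 point per library. The 3 epidermal points lie at the left edge, where Lyz2 is below 0.2 CPM, with Cd74 between 398 and 482 CPM, and the 3 subcutaneous points lie at the right, with Lyz2 between 2320 and 4509 CPM.

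Markers of class II-bearing cells were examined as whole lists. In epidermal over subcutaneous ILCs, 13.3% of all genes tested were called lower. Of 14 macrophage genes, 13 were called lower in epidermal ILCs when set against subcutaneous ones, and the list summed to 8.29 to 18.1 CPM in epidermal, 203 to 258 CPM in dermal CCR6+, 380 to 734 CPM in dermal Sca1+ and 4302 to 8090 CPM in subcutaneous libraries. The complement genes C1qa, C1qb and C1qc, which tissue macrophages make in quantity, had between 0 and 8 counts in each epidermal library, and the mannose receptor gene Mrc1 had 0 counts in all 3. Of 9 dendritic cell genes tested (of 10 listed), 5 were called lower, and the list summed to 104 to 160 CPM in epidermal, 649 to 666 CPM in dermal CCR6+, 274 to 351 CPM in dermal Sca1+ and 207 to 577 CPM in subcutaneous libraries. The integrin gene Itgax had 0 counts in all epidermal libraries and Flt3 0 or 1. Itgax also had 0 counts in dermal CCR6+ replicate 2 and subcutaneous replicate 3, and Flt3 had 0 in subcutaneous replicate 1. Xcr1, of the same list, was at 19.9 ± 2.68 CPM in epidermal and 17.8 ± 5.78 CPM in subcutaneous ILCs (SD, n = 3 each). Of 6 B cell genes tested (of 8 listed), 4 were called lower, the list summed to 6.49 to 7.17 CPM in epidermal, 15.4 to 23.5 CPM in dermal CCR6+, 20.1 to 30.8 CPM in dermal Sca1+ and 33.8 to 69.6 CPM in subcutaneous libraries, and Ms4a1 and Cd79a had 0 counts in all epidermal and dermal libraries. Of the 4 Langerhans cell genes, Mfge8 and Epcam were called lower, and the list summed to 214 to 393 CPM in epidermal, 267 to 293 CPM in dermal CCR6+, 372 to 456 CPM in dermal Sca1+ and 485 to 846 CPM in subcutaneous libraries. Cd207, which encodes langerin, had 5, 3 and 33 counts in the epidermal libraries. What these cells contribute to the class II levels of the dermal and subcutaneous libraries was not tested.

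Within groups, markers and class II genes were high in the same library in some cases and not in others. Epidermal replicate 3 had 30 counts of Csf1r and 33 of Cd207, the most in its group, and the highest H2-Aa (45.5 CPM), H2-Eb1 (26.9 CPM) and H2-DMb1 (18.2 CPM) of its group, and its macrophage genes summed to 18.1 CPM. Without it, the log2 fold change of H2-Aa in epidermal over subcutaneous ILCs was -5.07. Dermal Sca1+ replicate 2 had 2.41 times the H2-Aa of replicate 1 and more Cd74, with 1.59 times the Lyz2 and 2.8 times the Csf1r, while H2-DMa (49.6 CPM, against 49.8 CPM in replicate 1) and H2-Oa (24.3 CPM, against 29.6 CPM) were not higher. The dermal CCR6+ pair ran the other way: replicate 1 had more Csf1r (19.7 against 5.74 CPM), Lyz2 (161 against 149 CPM) and summed macrophage genes (258 against 203 CPM) than replicate 2, and less of the summed class II genes (1568 against 1917 CPM) and of Cd74 (891 against 1136 CPM). Subcutaneous replicate 2 had the highest H2-Aa (1066 CPM), H2-DMa (154 CPM) and Lyz2 (4509 CPM) of its group. The part of these markers in the class II levels was not tested.

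**Figure D5:**
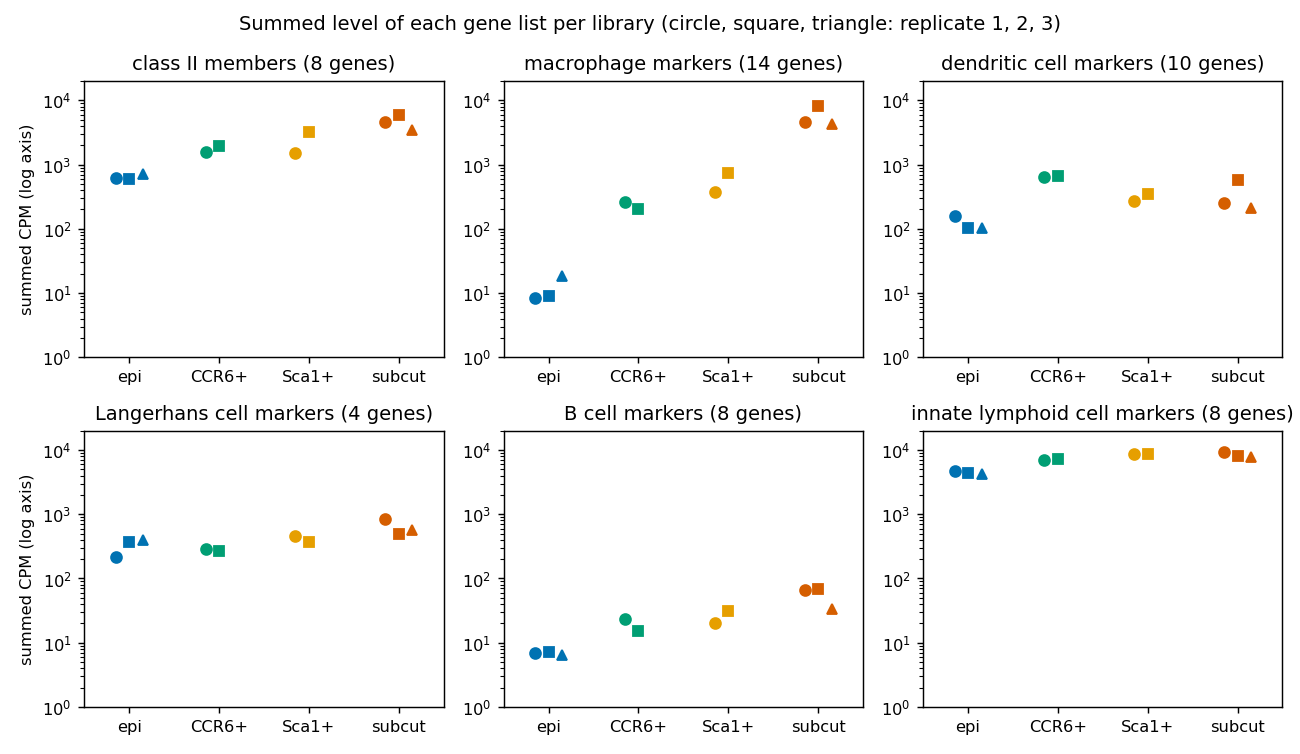
Summed CPM of the 8 class II genes and of the macrophage, dendritic cell, Langerhans cell, B cell and ILC gene lists in each library, on a shared log axis. The macrophage sum spans 8.29 to 8090 CPM and the class II sum 591 to 5878 CPM, while the ILC sum spans 4244 to 9252 CPM.

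Markers of other cells shifted in the same comparison, where 20.2% of all genes tested were called in either direction and 13.3% were called lower. In epidermal over subcutaneous ILCs, 5 of 5 fibroblast, 5 of 5 endothelial and 4 of 5 mast cell genes were called lower and 5 of 5 keratinocyte genes higher. By edgeR 0 of 7 T cell genes were called, 2 of them with an unadjusted p under 0.05. Of the 8 ILC genes, 3 were called lower, 2 were called higher and 3 were not called. Fibroblast genes summed to 0.139 to 13.6 CPM in epidermal and 2707 to 4031 CPM in subcutaneous libraries, and keratinocyte genes to 2134 to 4411 and 26.5 to 31.8 CPM in the same groups. Their part in the class II levels was not tested.

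Other genes of the class II pathway were called less often in that comparison, with no test of the difference. Over all genes tested in epidermal over subcutaneous ILCs, 13.3% were called lower, with a median log2 fold change of -0.02. Of 21 listed, the promoter-binding factors included, 19 were tested, and 5 were called lower in epidermal than in subcutaneous ILCs with a median log2 fold change of -0.77. Among them were Ctsb, a lysosomal cathepsin (324 ± 41.9 CPM in epidermal and 1715 ± 446 CPM in subcutaneous ILCs, SD, n = 3 each; log2 fold change -2.40 ± 0.212 SE, edgeR adjusted p = 4.0e-05), and Lgmn, the endopeptidase legumain that starts the cutting of the invariant chain (15.0 ± 5.84 and 112 ± 59.5 CPM, -2.90 ± 0.426, 0.000909). The cathepsin gene Ctsl (-2.08 ± 0.368, 0.00274), H2-DMb2 (-3.10 ± 0.544, 0.00262) and March1, which encodes a ubiquitin ligase that removes class II from the surface (-7.12 ± 1.80, 0.0185), were the others. March1 had 2 counts over all epidermal libraries. In epidermal over dermal CCR6+ ILCs Ctsb was called lower and March8, a related ligase gene, was called higher (30.1 ± 13.1 CPM, n = 3, and 6.22 ± 3.81 CPM, n = 2; 2.27 ± 0.541, 0.0328). Ctsb alone was called in epidermal over dermal Sca1+ and in dermal Sca1+ over subcutaneous ILCs, and Lgmn, Ctsl, Ctsb and March8 were called lower in dermal CCR6+ over subcutaneous ILCs. In dermal CCR6+ over dermal Sca1+ ILCs edgeR called 0 of the 19, and 3 had an unadjusted p under 0.05. H2-Ea-ps, the defective I-E alpha chain gene, had 0 counts in all libraries.

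The factors that bind class II promoters were not called in any comparison. These were Rfx5, Rfxank and Rfxap of the RFX complex, Nfya, Nfyb and Nfyc of NF-Y, and Creb1. Over the 6 comparisons, edgeR called 0 of 42 values, 6 had an unadjusted p under 0.05, and the lowest adjusted p was 0.0569. That value belonged to Rfx5 in epidermal over dermal CCR6+ ILCs, at 21.6 ± 6.74 CPM (SD, n = 3) and 5.43 ± 3.57 CPM (n = 2).

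Genes of the interferon gamma pathway, which induces Ciita in many cells, were also followed. Of 16 listed and tested, 9 were called lower in epidermal than in subcutaneous ILCs, with a median log2 fold change of -1.57, and 5 each against dermal CCR6+ and dermal Sca1+ ILCs. Over all genes tested, 13.3%, 5.19% and 8.66% were called lower in these comparisons, in that order. The receptor gene Ifngr1 was at 197 ± 39.1 CPM in epidermal (SD, n = 3), 879 ± 141 CPM in dermal CCR6+ (n = 2), 1137 ± 23.0 CPM in dermal Sca1+ (n = 2) and 847 ± 177 CPM in subcutaneous ILCs (n = 3). Its log2 fold change in epidermal over subcutaneous ILCs was -2.10 ± 0.217 (SE; edgeR adjusted p = 9.9e-05), beside -3.13 ± 0.340 (0.000133) for the chemokine gene Cxcl10 and -1.99 ± 0.301 (0.00108) for the transcription factor gene Irf1. These lists were drawn up with results of these data known, so their counts describe and do not test.

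Likeness of pattern was measured as the root mean square difference of log2 CPM over the 10 libraries, after centring each gene. H2-Aa, H2-Ab1 and H2-Eb1 were the closest of the 8 genes, with differences of 0.145 to 0.280. Cd74 was closer to H2-DMb1 (0.424) than to H2-Aa (1.04), H2-DMa was closest to H2-Oa (0.423), and Ciita was at least 1.16 from each of the others. Outside the 8 genes, among 6851 genes with a mean of at least 20 CPM, those most like Cd74 were Tcn2, a carrier of vitamin B12 (0.240), Tnfsf11, the cytokine RANKL made by lymphoid tissue inducer cells (0.276), Ctsb (0.312), Kat2b (0.323), Isy1 (0.330) and Rhoc (0.333). Among 10331 genes with a mean of at least 5 CPM, those most like H2-Oa were Pkig, Tuba1c, Gcnt2, Hsp90aa1, Tpt1-ps3 and Tagln2 (0.197 to 0.240), and those most like Ciita were Wdr7, Fam208b, Gorab, Casp9, Eef2k and Ercc6l2 (0.415 to 0.489). The 10 libraries share their depth and group structure, so these distances are a description.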

How the data were processed

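RNA was measured in 10 libraries of skin ILCs. Per the labels' protocols, cDNA came from a SMART-Seq kit and the libraries from Nextera XT. The submitters' processing notes name mm10 as the build and Trimmomatic, STAR and RSEM as tools; versions, settings and annotation were not given in the sources used here. The preparation does not mark strand. The expected counts and the TPM values are the RSEM estimates the authors deposited, per the file headers. FPKM values were not used. Groups follow the layer and the sort marker in the titles, because in each dermal sort replicate 2 carries no marker in its cell type field. The series design speaks of triplicates, and 2 libraries of either dermal sort were analysed here.

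The members, lists and tests were chosen with earlier results of these data known. Gene IDs were matched to GENCODE M21 (47224 of 47643 carried a symbol), which also gave the coordinates. Expected counts were rounded. filterByExpr (edgeR 4.0.16, R 4.3.3, minimum count 10) left 16208 genes. With TMM library sizes, 1 model of the 4 groups was fitted to all 10 libraries (biological coefficient of variation 0.62) and tested two-sided with glmQLFTest, with Benjamini-Hochberg adjustment over all genes and a threshold of 0.05. The SE is the absolute log2 fold change over the square root of F. It was derived and is not a model output. The procedure was tested on simulated data. Ratios were tested by exact permutation (scipy 1.17.1). Always named were the 8 members, Lyz2 and Csf1r, and from each list at most 4 called genes per comparison by adjusted p, plus any list of 5 or fewer. Likeness left out predicted, mitochondrial, ribosomal and antigen receptor genes. H2-Ob, H2-DMb2, Ctsl, March1, March8, Rfx5, Mrc1, Xcr1 and the marker genes given with counts were named after their values were seen where the rule did not reach them. The alternatives were RLE factors, DESeq2 1.42.0, limma 3.58.1 on log2(TPM + 1) and log2(TPM + 0.1), no filter, a filter of 5 CPM in 2 libraries, a replicate block, only the groups compared, and each library left out. Chi-square tests between replicates gave 40.9 or more per degree of freedom, so no pair looked like repeat deposits of 1 library. This does not show that they are separate biological samples. Library totals of 11627222 to 18118544 limit low genes such as Ciita, results of a few listed genes are not reported here, and floors of 3 counts cover counting error only.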

Additional observations from a re-analysis of the deposited data

How the results depend on the processing

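Of the 21 differences called among the 8 class II genes, 11 were called under all 18 alternatives: H2-Aa, H2-Ab1 and H2-Eb1 in epidermal ILCs against each other group, and Cd74 and H2-DMb1 against subcutaneous ILCs. Of the 27 not called, 20 stayed so under all alternatives. With 1 library left out, the number called was 5 to 7 in epidermal with subcutaneous, 3 to 4 in epidermal with dermal CCR6+, 3 to 5 in epidermal with dermal Sca1+, 0 to 5 in dermal CCR6+ with subcutaneous, 0 to 1 in dermal Sca1+ with subcutaneous and 0 in dermal CCR6+ with dermal Sca1+ ILCs. In dermal Sca1+ with subcutaneous ILCs, DESeq2 called 3, limma 2 with either pseudocount and the fit with no filter 6 of the 8. In dermal CCR6+ with dermal Sca1+ ILCs, no filter gave 1 call (H2-Aa).

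Whether title numbers pair the libraries could not be settled. Correlations of deviations from the group means were -0.0381 to 0.114 within and -0.101 to 0.0877 between numbers. The highest, 0.114, was that of epidermal replicate 1 with subcutaneous replicate 1. In a group of 2 libraries the deviations mirror each other, so such correlations cannot exclude pairing. The replicate block left 0 of the 8 called in dermal Sca1+ with subcutaneous ILCs and, over all genes, 203 calls there and 64 in dermal CCR6+ with dermal Sca1+ ILCs. It also ended the Cd74 calls against dermal CCR6+ (adjusted p = 0.136) and dermal Sca1+ (0.0567).

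Over all genes, calls in epidermal with dermal CCR6+ ILCs numbered 1001, against 2001 by DESeq2, 2028 with no filter and 618 with only those groups. For epidermal with dermal Sca1+ they numbered 1848, against 2967 by DESeq2, 2918 with no filter and 1192 to 1865 with a library left out. For dermal CCR6+ with subcutaneous they numbered 1209, against 2345 by DESeq2, 1978 and 1899 by limma (pseudocount 1 and 0.1), 2292 with no filter and 435 to 1372 with a library left out. For dermal Sca1+ with subcutaneous they numbered 357, against 1193 by DESeq2, 891 and 743 by limma, 1328 with no filter, 560 with only those groups and 157 to 420 with a library left out. For dermal CCR6+ with dermal Sca1+ they numbered 104, against 561 by DESeq2, 647 with no filter, 47 with only those groups and 35 to 155 with a library left out. The cause was not tested. On the TPM scale (limma, pseudocount 1), the share of calls that were higher was 47.9% for epidermal over subcutaneous, against 34.1% in edgeR, 35.5% against 16.0% for epidermal over dermal CCR6+, 39.1% against 24.1% for epidermal over dermal Sca1+ and 40.0% against 54.9% for dermal Sca1+ over subcutaneous, and the all-gene median log2 fold change of epidermal over subcutaneous was 0.08 (0.11 with pseudocount 0.1), against -0.02 in edgeR.

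Directions turned only for values that were not called. With 1 library left out, the log2 fold change in dermal CCR6+ over dermal Sca1+ ranged over -0.63 to 0.40 for Cd74, -1.44 to 0.16 for H2-Eb1 and -0.02 (-0.0223) to 0.23 for H2-Oa. That of Ciita ranged over -1.55 to 0.17 in dermal Sca1+ over subcutaneous and -0.63 to 1.08 in epidermal over dermal Sca1+, where limma gave 0.0786 and 0.20. The log2 ratio difference of H2-DMb1 to Cd74 ranged over -0.32 to 0.0046. With library totals alone in place of TMM, the epidermal mean of the summed members was 715 in place of 639 CPM. Depth limits Ciita most.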

Other observations

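Class I presentation genes, which serve display of peptides from inside the cell to CD8 T cells, were followed beside the class II genes. Of 14 listed and tested, 4 were called lower in epidermal than in subcutaneous ILCs, with a median log2 fold change of -0.32. Over all genes tested in that comparison, 13.3% were called lower and 20.2% in either direction, with a median of -0.02. H2-K1 was at 2127 ± 213 CPM in epidermal and 5140 ± 711 CPM in subcutaneous ILCs (SD, n = 3 each; log2 fold change -1.27 ± 0.162 SE, edgeR adjusted p = 0.000349), and H2-D1 at 3463 ± 508 and 8999 ± 1535 CPM (-1.38 ± 0.181, 0.000447). B2m, the light chain of class I (-0.80 ± 0.212, 0.0229), and Tapbp, which helps load its peptides (-0.82 ± 0.175, 0.00809), were the others. Nlrc5, the class I counterpart of Ciita, was at 37.0 ± 8.59 CPM in epidermal and 50.7 ± 23.0 CPM in subcutaneous ILCs and was not called. Reads of H2-K1, H2-D1 and their close relatives may be split with error.

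Among the dendritic cell genes, Zbtb46 and Ccr7, which some ILCs also express, had their highest levels in dermal CCR6+ ILCs. Zbtb46 was at 35.6 ± 12.3 CPM in epidermal (SD, n = 3), 140 ± 24.2 CPM in dermal CCR6+ (n = 2), 99.8 ± 33.9 CPM in dermal Sca1+ (n = 2) and 75.3 ± 14.4 CPM in subcutaneous ILCs (n = 3). It was called lower in epidermal ILCs than in each other group (edgeR adjusted p of 0.00475 to 0.0275). Ccr7, the receptor that guides cells to lymph nodes, was at 66.7 ± 19.6 CPM in epidermal, 469 ± 23.4 CPM in dermal CCR6+, 106 ± 29.5 CPM in dermal Sca1+ and 88.0 ± 102 CPM in subcutaneous ILCs and was not called in any comparison. Ccr7 was named after its values were seen.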
